A study of Mus musculus with 2 samples.

Results

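Fatty acid oxidation was examined through 49 genes, taken as a list of enzymes and carriers of fatty acid activation, the carnitine shuttle, mitochondrial β-oxidation, the electron transfer flavoprotein and peroxisomal β-oxidation. A signal of their own was obtained for 46 of these 49, out of 19936 nuclear genes named on the arrays. Acsl3 and Cpt1b were found only on probe sets that also detect another gene, and Acsl1 was not analysed, because no probe set was named for it here. The list goes by gene name and was drawn up with earlier results of these data known.

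Transcripts were measured with Affymetrix Mouse Gene 1.0 ST arrays in gastrocnemius muscle, the large calf muscle, of PGC-1β(i)skm-/- mice and of controls, with RNA of 3 mice pooled on the single array of each genotype. PGC-1β(i)skm-/- mice were males of genotype HSA-Cre-ERT2(tg/0)/PGC-1βL2/L2, in which tamoxifen activates a Cre recombinase driven by human skeletal actin (HSA) sequences in myofibres and removes an exon of the floxed PGC-1β gene. Controls were male littermates of genotype HSA-Cre-ERT2(0/0)/PGC-1βL2/L2, which the sample labels call wild-type, and the strain is given as C57BL/6 for both. Both genotypes thus carried the floxed alleles, and both were given tamoxifen from an age of 7 weeks (5 daily injections, 1 mg each) and analysed when 8 weeks old, 1 week after the last dose. The Cre transgene was present in the mutants alone, so that its own effect and that of the deletion cannot be told apart. As there was a single array per genotype, no spread between mice and no test were available, and every difference below describes these 2 arrays. Their number limits how precise each value can be.

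Muscle burns fatty acids by activating them to acyl-CoA, passing them into mitochondria as carnitine esters, and shortening them in repeated cycles of dehydrogenation, hydration, a further dehydrogenation and thiolysis. The electrons of the first dehydrogenation pass through the electron transfer flavoprotein to ubiquinone. Peroxisomes shorten very long and branched chains with enzymes of their own and hand the products to mitochondria. PGC-1β is a transcriptional coactivator that works through estrogen-related receptors, peroxisome proliferator-activated receptors (PPARs) and other transcription factors at genes of oxidative metabolism.

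The values are log2 signals, on which a difference of PGC-1β(i)skm-/- minus control below 0 means less signal in mutant muscle. Ppargc1b, the deleted gene, had a log2 signal of 7.06 in PGC-1β(i)skm-/- muscle and 7.87 in control muscle, a difference of -0.81. Its probe set was not restricted to the deleted exon. The median difference over all named nuclear genes was -0.00055, with a standard deviation over genes of 0.116.

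Of the 46 measured members, 39 were lower in PGC-1β(i)skm-/- muscle, as were 50.2% of all named nuclear genes. Their median difference was -0.10, which is a 7.01% lower signal, and they ranged between -0.33 and 0.11. A difference of -0.1 or less was found for 25 members, against 16.9% of all genes. The reductions were small on the scale of the study's thresholds, since a ratio of 0.8 or less was reached by 1 member, Acadvl, against 0.652% of all genes, and a ratio of 1.2 or more by 0 members, against 1.64% of all genes. Phyh joined Acadvl when a ratio of 1/1.2 or less was asked for, which 1.69% of all genes reached. Thus most members were a little lower, and few genes stood far out.

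**Figure D1:**
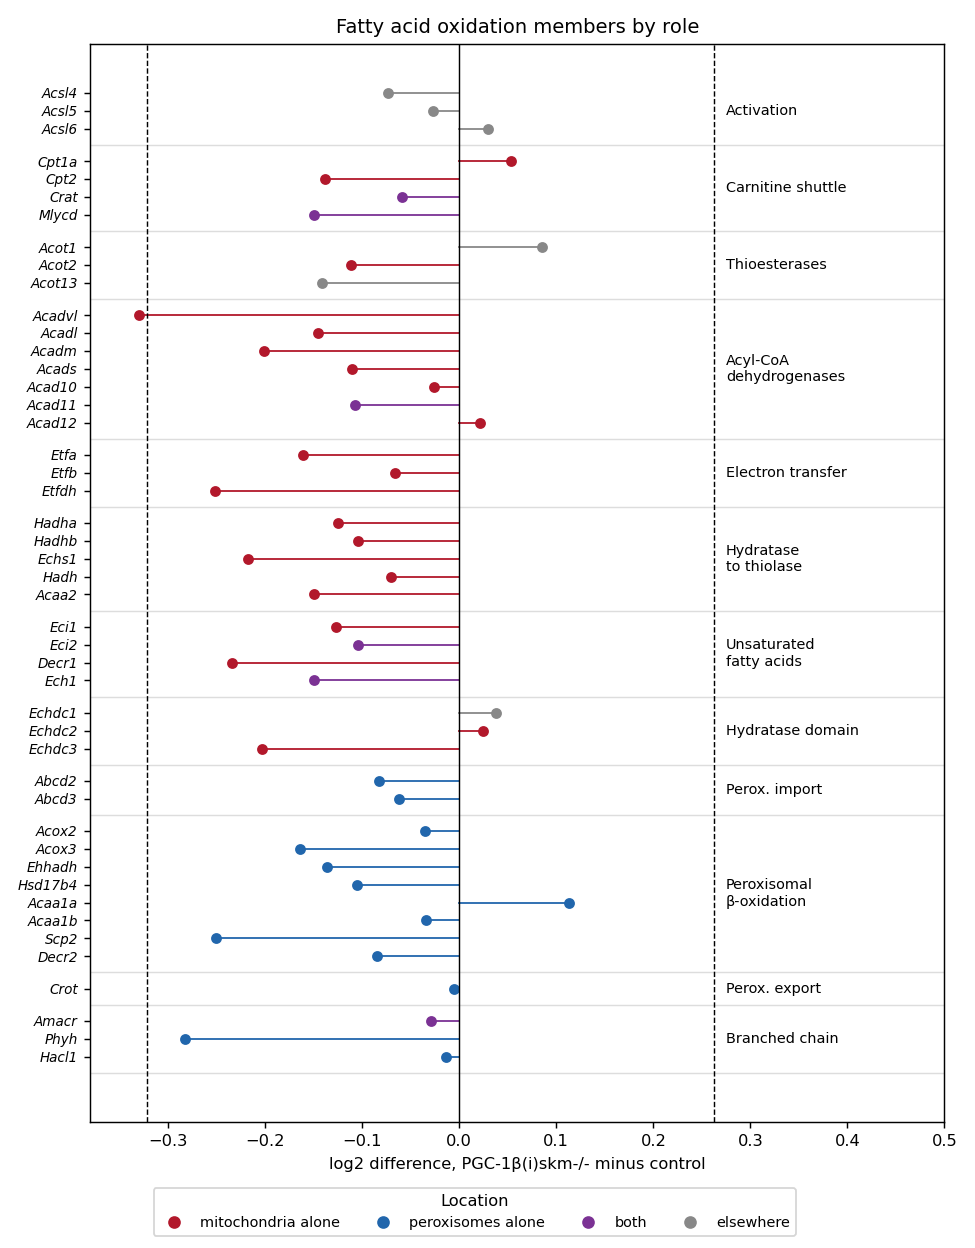
Log2 difference of each of the 46 measured members (horizontal axis, PGC-1β(i)skm-/- minus control, 1 array per genotype), grouped by role and coloured by the location of the protein, with dashed lines at ratios of 0.8 and 1.2. 39 points lie left of 0 and 1, Acadvl, lies left of the lower dashed line.

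Markers of other cells of the muscle also differed between the arrays. All 9 connective tissue markers had a higher signal in PGC-1β(i)skm-/- muscle, with a median difference of 0.22 and a sum of linear signals of 14230 in mutant and 12447 in control muscle. All 9 macrophage markers were higher too, with a median of 0.27 and sums of 1311 in mutant and 1095 in control muscle. Adipocyte markers had a median of 0.07 with 3 of 7 below 0, and endothelial markers a median of 0.06 with 2 of 7 below 0. Of all named nuclear genes, 50.2% were below 0. The 7 markers that define skeletal muscle, such as Acta1 and Ckm, were strongly detected in both, with signals of 12.83 to 13.91 in mutant and 12.82 to 13.88 in control muscle, and differed by 0.0021 to 0.04. In whole muscle, fewer cells of a type and less RNA per cell cannot be told apart, and the part of these cells in the differences of the members was not tested.

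The promoters of the 7 members of lowest difference among those with a RefSeq promoter are shown first. Those of the remaining members with a short sequence on which nuclear receptors can bind follow them. A RefSeq promoter, running 250 bases upstream to 50 bases downstream of a start site in build GRCm38.p6, was at hand for 41 of the 49 members. It was searched on both strands for the nuclear receptor half-site AGGTCA, which the longer half-site of estrogen-related receptors, AAGGTCA, contains. Each stretch is written 5′ to 3′ on the strand of its gene, with the half-site, or its reverse complement TGACCT, in capitals. For Scp2, Acsl6 and Cpt1a, the start site used lies inside the gene as RefSeq bounds it. The regions were chr11:70015379-70015678 on the minus strand for Acadvl, chr2:4918746-4919045 on the plus strand for Phyh, chr3:79628718-79629017 on the minus strand for Etfdh, chr4:108118498-108118797 on the minus strand for Scp2, chr7:140116372-140116671 on the minus strand for Echs1, chr2:6212945-6213244 on the minus strand for Echdc3 and chr3:153944594-153944893 on the minus strand for Acadm. Etfdh is in lower case throughout, since it has no half-site. Acsl6, chr11:54303574-54303873 on the plus strand, and Cpt1a, chr19:3323051-3323350 on the plus strand, are shown as promoters with the half-site whose genes were not lower.
Acadvl: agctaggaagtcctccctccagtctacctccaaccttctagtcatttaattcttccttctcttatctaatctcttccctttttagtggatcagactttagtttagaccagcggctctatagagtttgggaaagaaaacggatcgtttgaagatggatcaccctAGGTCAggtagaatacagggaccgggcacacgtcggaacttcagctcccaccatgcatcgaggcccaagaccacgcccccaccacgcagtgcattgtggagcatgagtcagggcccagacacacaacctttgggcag
Phyh: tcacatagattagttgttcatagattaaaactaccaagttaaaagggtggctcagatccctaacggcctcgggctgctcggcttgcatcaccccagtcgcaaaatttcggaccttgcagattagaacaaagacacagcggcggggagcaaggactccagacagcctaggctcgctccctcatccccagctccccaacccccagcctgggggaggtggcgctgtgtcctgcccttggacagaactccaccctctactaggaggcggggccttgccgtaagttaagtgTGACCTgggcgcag
Etfdh: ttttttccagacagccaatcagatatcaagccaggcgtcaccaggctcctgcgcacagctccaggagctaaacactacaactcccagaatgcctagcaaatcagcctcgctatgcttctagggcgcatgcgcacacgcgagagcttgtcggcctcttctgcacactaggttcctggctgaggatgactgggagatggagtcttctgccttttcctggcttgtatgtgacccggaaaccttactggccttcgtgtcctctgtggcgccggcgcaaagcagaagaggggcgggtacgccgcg
Scp2: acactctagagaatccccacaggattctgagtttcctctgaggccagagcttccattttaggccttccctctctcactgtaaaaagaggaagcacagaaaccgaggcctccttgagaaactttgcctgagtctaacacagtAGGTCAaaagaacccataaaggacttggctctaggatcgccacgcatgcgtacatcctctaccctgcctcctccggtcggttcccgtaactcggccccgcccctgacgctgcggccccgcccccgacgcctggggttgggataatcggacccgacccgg
Echs1: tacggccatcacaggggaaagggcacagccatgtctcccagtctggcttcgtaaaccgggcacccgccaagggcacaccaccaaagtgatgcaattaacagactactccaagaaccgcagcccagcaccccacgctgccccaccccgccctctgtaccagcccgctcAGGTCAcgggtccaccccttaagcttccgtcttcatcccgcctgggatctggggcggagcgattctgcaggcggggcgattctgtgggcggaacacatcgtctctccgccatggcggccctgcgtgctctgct
Echdc3: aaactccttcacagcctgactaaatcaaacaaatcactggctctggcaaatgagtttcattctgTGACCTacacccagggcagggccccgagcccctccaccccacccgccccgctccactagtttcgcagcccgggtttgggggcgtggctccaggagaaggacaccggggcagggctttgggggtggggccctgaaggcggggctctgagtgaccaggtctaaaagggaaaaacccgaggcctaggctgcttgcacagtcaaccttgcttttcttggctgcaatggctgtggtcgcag
Acadm: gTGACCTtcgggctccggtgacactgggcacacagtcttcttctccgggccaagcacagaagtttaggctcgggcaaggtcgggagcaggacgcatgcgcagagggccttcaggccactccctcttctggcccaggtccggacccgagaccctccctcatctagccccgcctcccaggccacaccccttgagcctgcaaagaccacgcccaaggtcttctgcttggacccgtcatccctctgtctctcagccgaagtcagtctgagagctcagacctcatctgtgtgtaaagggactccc
Acsl6: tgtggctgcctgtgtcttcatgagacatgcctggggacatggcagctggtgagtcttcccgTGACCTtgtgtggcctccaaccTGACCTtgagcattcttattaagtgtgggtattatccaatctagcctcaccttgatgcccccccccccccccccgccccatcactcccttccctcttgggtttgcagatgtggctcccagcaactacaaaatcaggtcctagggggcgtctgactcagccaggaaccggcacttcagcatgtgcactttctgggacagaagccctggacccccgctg
Cpt1a: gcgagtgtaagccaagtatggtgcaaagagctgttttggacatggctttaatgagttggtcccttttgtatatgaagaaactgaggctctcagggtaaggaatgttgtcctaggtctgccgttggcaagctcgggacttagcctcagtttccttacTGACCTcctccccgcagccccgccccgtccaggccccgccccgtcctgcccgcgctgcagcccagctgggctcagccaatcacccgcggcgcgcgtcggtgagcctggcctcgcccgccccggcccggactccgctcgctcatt

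These half-sites had no common position. They began 87 bases upstream of the start site in Acadvl, 109 in Scp2, 83 in Echs1, 186 in Echdc3, 249 in Acadm, 189 and 167 in Acsl6, which has a pair of them, and 94 in Cpt1a, and 36 bases downstream of it in Phyh. The half-site AGGTCA was found in 8 of the 41 member promoters, or 19.5%, against 16.0% of the promoters of 27025 genes. Over measured genes alone, the shares were 20.5% of 39 members and 13.9% of 15614 genes, and 12.2% of 2321 genes with a mean log2 signal of 9 or more. Among the 39 measured members with a promoter, 6 of the 7 of lowest difference carried it, the exception being Etfdh, and the 8 carriers had a median difference of -0.21 against -0.08 for the 31 others. This arrangement was noticed after the values were seen. The group of 7 was cut on the same differences, so it is no test of the half-site. Decr1, at -0.23, is not among the 7 because it had no promoter at hand. The remaining carriers, Acsl6 and Cpt1a, differed by 0.03 and 0.05, and over all measured genes the median difference was 0.00014 with the half-site and -0.0025 without it. A match is a run of letters only, and binding was not measured.

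**Figure D2:**
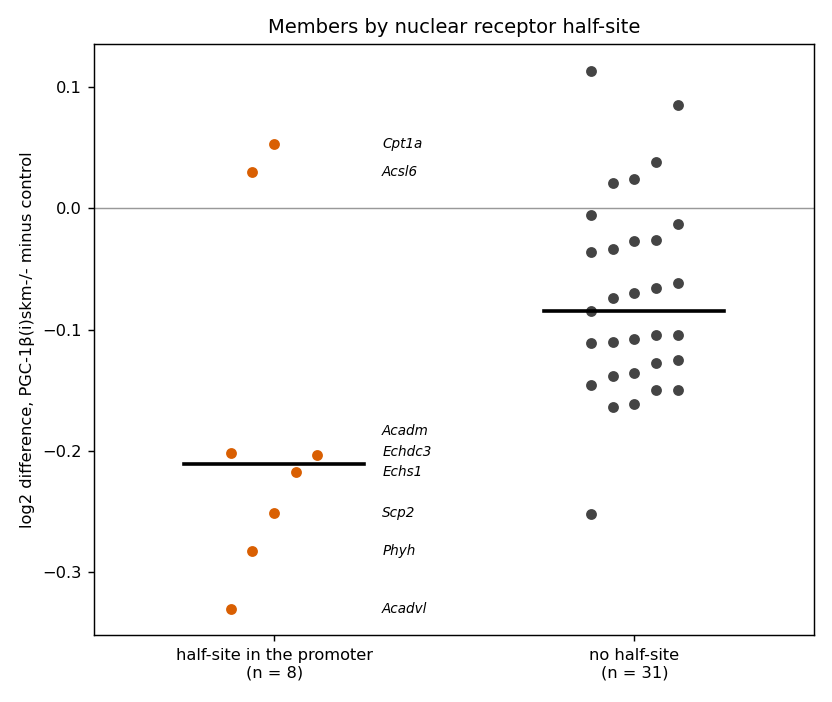
Log2 difference (vertical axis, PGC-1β(i)skm-/- minus control) of the 39 measured members with a RefSeq promoter, with and without the half-site AGGTCA on either strand; points are genes and bars are medians. 6 of the 8 carriers lie at -0.20 or below, whereas Acsl6 and Cpt1a lie above 0.

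Other motifs were also searched on both strands. The extended half-site AAGGTCA was present in the promoters of Acadm and Acsl6, or 4.88% of members, against 4.66% of all genes and 3.4% of those with a mean signal of 9 or more. These 2 carriers went in opposite directions, with -0.20 for Acadm and 0.03 for Acsl6. Their median was -0.09, against -0.10 for the 37 measured members without it, and 2 genes are too few for a comparison. The letters GCGCATGC of nuclear respiratory factor 1 (NRF-1) were found in 5 member promoters, or 12.2%, those of Acad10, Acad12, Acadm, Etfa and Etfdh, against 2.8% of all genes and 6.59% of those with a mean signal of 9 or more. The ETS letters CCGGAAG, bound by GABPA, were found in 4, those of Cpt2, Crot, Echdc1 and Mlycd, or 9.76%, against 9.12% of all genes and 18.2% of those with a mean signal of 9 or more. The Sp1 letters CCCGCCC were the most frequent, in 27 of 41 or 65.9%, against 25.8% of all genes and 50.5% of the genes of high signal. For every motif, the member shares cover members of any signal, and the share among members of high signal was not calculated. The 41 also include Acsl1 and Acsl3, which had no signal of their own. Members with the NRF-1 letters had a median difference of -0.16 and those without it -0.10. For the ETS letters, these medians were -0.07 with and -0.10 without, and for Sp1 -0.10 with and -0.09 without.

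Members differed by role. Every gene of the electron transfer flavoprotein and of the later steps of the mitochondrial cycle was below 0, against 50.2% of all genes. The picture at the entry of the pathway was mixed. The genes of the flavoprotein and of the later steps all had a mean log2 signal of 9 or more. All 26 members of such signal were below 0, against 56.5% of all genes of such signal. Role and signal thus cannot be told apart here. Long-chain acyl-CoA synthetases activate fatty acids by joining them to coenzyme A. Acsl3 shared its probe set with Utp14b, with a signal of 7.57 in PGC-1β(i)skm-/- and 7.60 in control muscle, and the share of each gene in it is unknown. Acsl4, Acsl5 and Acsl6 differed by -0.07, -0.03 and 0.03, so that none of the measured synthetases moved by much.

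In the carnitine shuttle, Cpt1a, the carnitine palmitoyltransferase 1 isoform of liver, had a signal of 8.22 in PGC-1β(i)skm-/- and 8.17 in control muscle. Cpt1b, the muscle isoform, shared a probe set with Gm44502, whose signal was 11.88 in PGC-1β(i)skm-/- and 11.94 in control muscle. Cpt1a thus differed by 0.05 and the shared probe set by -0.06, from which no value for Cpt1b itself can be taken. Cpt2, which re-forms acyl-CoA at the inner membrane, had a difference of -0.14, or 9.11% lower. Mlycd, the malonyl-CoA decarboxylase that removes the inhibitor of carnitine palmitoyltransferase 1, differed by -0.15, and Crat, which exchanges acetyl groups between carnitine and coenzyme A, by -0.06. Of the 4 members of the shuttle with a probe set of their own, 3 were below 0, with a median of -0.10. Of all named nuclear genes, 50.2% were below 0, and 4 genes are few beside this.

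Thioesterases split acyl-CoA back into fatty acid and coenzyme A. Acot2, the mitochondrial enzyme, had a signal of 10.13 in PGC-1β(i)skm-/- and 10.24 in control muscle, a difference of -0.11. Acot1, its cytosolic counterpart and neighbour on chromosome 12, had 5.13 in PGC-1β(i)skm-/- and 5.05 in control muscle, a difference of 0.09. The transcripts of Acot1 and Acot2 are nearly identical, so that their separation on the array is uncertain. Acot13 differed by -0.14.

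The acyl-CoA dehydrogenases carry out the first step of each cycle, with a different chain length for each enzyme. Acadvl, for very long chains, had a signal of 9.32 in PGC-1β(i)skm-/- and 9.65 in control muscle, a difference of -0.33 and a ratio of 0.796. It was the lowest member and stood at rank 115 from the lowest of 19936 genes. Acadm, for medium chains, had 11.49 in PGC-1β(i)skm-/- and 11.69 in control muscle, a difference of -0.20, and Acadl, for long chains, 10.59 in PGC-1β(i)skm-/- and 10.73 in control muscle, a difference of -0.15. Acads, for short chains, was lower by a smaller amount, with a difference of -0.11. The 4 dehydrogenases of straight chains were thus all lower, as were 50.2% of all named nuclear genes. Acad11 differed by -0.11, whereas Acad10 and Acad12, neighbours on chromosome 5 of related sequence whose transcripts may not be told apart, differed by -0.03 and 0.02.

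The electron transfer flavoprotein takes up the electrons of these dehydrogenases. Each of its genes was lower, as were 50.2% of all named nuclear genes. Etfdh, the oxidoreductase that passes them to ubiquinone, had a signal of 10.06 in PGC-1β(i)skm-/- and 10.31 in control muscle, a difference of -0.25, or 16.0% lower. Etfa, the α subunit, had 10.15 in PGC-1β(i)skm-/- and 10.31 in control muscle, a difference of -0.16. Etfb, the β subunit that pairs with Etfa, had 11.77 in PGC-1β(i)skm-/- and 11.83 in control muscle, a difference of -0.07. The values of the subunits of this heterodimer were thus unequal on these arrays, which was not tested.

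The later steps of the cycle are hydration, oxidation and thiolysis. The 5 genes of these steps were all lower, against 50.2% of all genes, with a median of -0.13. Hadha and Hadhb encode the α and β subunits of the mitochondrial trifunctional protein, which performs all of these steps on long chains. Hadha had a signal of 11.40 in PGC-1β(i)skm-/- and 11.53 in control muscle, a difference of -0.13. Hadhb had 11.11 in PGC-1β(i)skm-/- and 11.21 in control muscle, a difference of -0.10, and its further probe set gave -0.08. These genes lie side by side on chromosome 5 in opposite directions, and their promoter windows overlap by 228 bases, at chr5:30155003-30155230. Echs1, the short-chain enoyl-CoA hydratase, had 9.74 in PGC-1β(i)skm-/- and 9.96 in control muscle, the largest difference of these 5 genes at -0.22. Acaa2, the mitochondrial thiolase, had 11.21 in PGC-1β(i)skm-/- and 11.36 in control muscle, a difference of -0.15, and Hadh, the hydroxyacyl-CoA dehydrogenase of shorter chains, differed by -0.07.

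Auxiliary enzymes move or remove the double bonds of unsaturated fatty acids. All 4 of the genes grouped here differed by -0.1 or less, as did 16.9% of all genes. Decr2, a peroxisomal enzyme of this kind, was grouped with peroxisomal β-oxidation and differed by -0.08. Decr1, the mitochondrial dienoyl-CoA reductase, had a signal of 9.96 in PGC-1β(i)skm-/- and 10.20 in control muscle, a difference of -0.23. Eci1, a mitochondrial enoyl-CoA isomerase, had 10.16 in PGC-1β(i)skm-/- and 10.29 in control muscle, and Eci2, an isomerase found in both organelles, 9.27 in PGC-1β(i)skm-/- and 9.37 in control muscle. Ech1, the dienoyl-CoA isomerase, differed by -0.15. This group therefore had the same direction in every member, with a median of -0.14.

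The genes with an enoyl-CoA hydratase domain did not share a direction. Echdc3 had a signal of 7.20 in PGC-1β(i)skm-/- and 7.40 in control muscle, a difference of -0.20. Echdc1, an ethylmalonyl-CoA decarboxylase, had 8.26 in PGC-1β(i)skm-/- and 8.22 in control muscle, and Echdc2 had 8.71 in PGC-1β(i)skm-/- and 8.69 in control muscle. Echdc2 lies beside Scp2 on chromosome 4, and these neighbours differed by 0.02 and -0.25.

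Peroxisomal genes were mostly lower too, and by less in the median. Abcd2, a transporter of very long-chain acyl-CoA into peroxisomes, had a signal of 9.92 in PGC-1β(i)skm-/- and 10.00 in control muscle, and Abcd3, a related transporter, 9.35 in PGC-1β(i)skm-/- and 9.42 in control muscle. Acox3, an acyl-CoA oxidase of branched chains, had 7.74 in PGC-1β(i)skm-/- and 7.90 in control muscle, a difference of -0.16, whereas Acox2, the oxidase of bile acid intermediates, had 5.07 in PGC-1β(i)skm-/- and 5.11 in control muscle, a difference of -0.04. The bifunctional enzymes that follow the oxidases, Ehhadh and Hsd17b4, differed by -0.14 and -0.11. Scp2, whose gene encodes a peroxisomal thiolase and the sterol carrier protein, had 7.46 in PGC-1β(i)skm-/- and 7.71 in control muscle, a difference of -0.25, or 16.0% lower. The other thiolases differed in sign, with 0.11 for Acaa1a and -0.03 for Acaa1b, and Acaa1a was the highest of all members. The transcripts of Acaa1a and Acaa1b are nearly identical, so that this split is uncertain. Acaa1b was also dim, with a signal of 4.25 in PGC-1β(i)skm-/- and 4.28 in control muscle. Decr2, the peroxisomal dienoyl-CoA reductase, differed by -0.08. In all, 7 of the 8 genes of peroxisomal β-oxidation were below 0, against 50.2% of all genes. The 7 include Acaa1b and Acox2, whose signals lay below the array medians of 6.02 in PGC-1β(i)skm-/- and 6.00 in control muscle.

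Phyh, the phytanoyl-CoA hydroxylase that starts the α-oxidation of branched phytanic acid, was the lowest peroxisomal member. Its signal was 10.61 in PGC-1β(i)skm-/- and 10.89 in control muscle, a difference of -0.28 and a ratio of 0.822. The other genes of branched and shortened chains differed little. Amacr, a racemase of branched acyl-CoA, had 8.87 in PGC-1β(i)skm-/- and 8.90 in control muscle. Hacl1, the lyase that acts after Phyh, differed by -0.01, and Crot, which makes carnitine esters of peroxisomal products for export, had 9.67 in PGC-1β(i)skm-/- and 9.68 in control muscle.

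**Figure D3:**
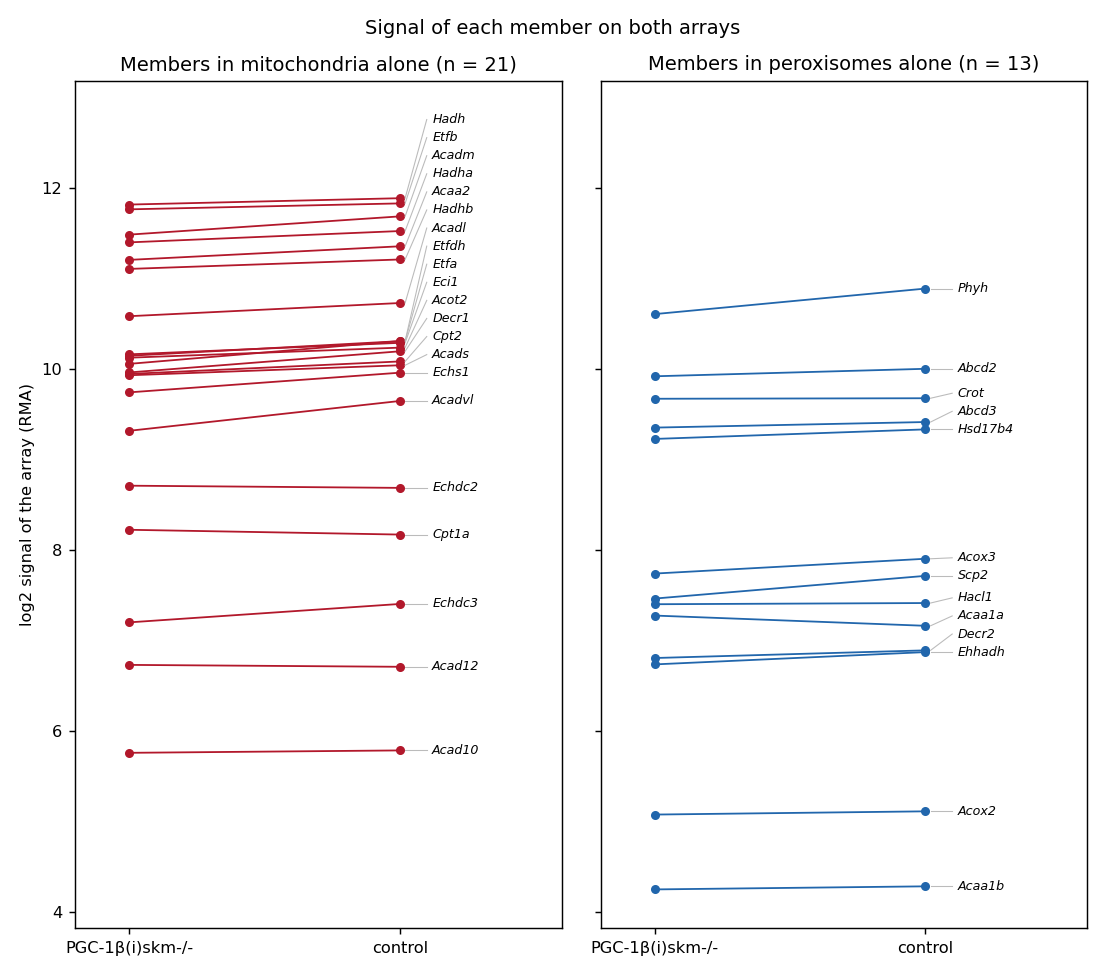
Log2 signal (vertical axis) of each member located in mitochondria alone (left, 21 genes) or in peroxisomes alone (right, 13 genes), with the PGC-1β(i)skm-/- array on the left of each panel and the control array on the right; a line joins the values of a gene. The lines of Acadvl, Phyh, Etfdh and Scp2 climb most toward the control array, and that of Acaa1a falls most.

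The compartments were set against each other over members located in 1 of them alone. Of 21 mitochondrial members, 18 were below 0, with a median difference of -0.13, or 8.44% lower, and a range of -0.33 to 0.05. Of 13 peroxisomal members, 12 were below 0, with a median of -0.08, or 5.57% lower, and a range of -0.28 to 0.11. The medians differed by -0.04, mitochondrial minus peroxisomal, which is small beside the spread within either compartment. A difference of -0.1 or less was found for 15 of the 21 mitochondrial and 5 of the 13 peroxisomal members, against 16.9% of all genes. All 6 members found in both organelles were below 0, with a median of -0.11. Of the 6 located elsewhere, 3 were below 0, or 50%, which is the background, since 50.2% of all named nuclear genes were below 0.

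Signal strength differed between the compartments. The median of the mean log2 signal was 10.2 for mitochondrial and 7.59 for peroxisomal members. Among members with a mean log2 signal of 9 or more, all 26 were below 0, against 56.5% of the 2831 named nuclear genes of such signal. The median was -0.14 for the 16 mitochondrial and -0.08 for the 5 peroxisomal genes of this class. Between 7 and 9, 7 of 12 members, or 58.3%, were below 0, against 56.4% of all genes of such signal, which is close to the background. In this class the compartments stood in the other order, with a median of 0.02 for 3 mitochondrial genes, 1 of them below 0, and -0.09 for 4 peroxisomal genes, 3 of them below 0. Below 7, 6 of 8 members were below 0, against 45.9% of all genes, and the medians were -0.0028 for 2 mitochondrial and -0.06 for 4 peroxisomal genes. The lower median of mitochondrial members was thus seen in the class of high signal alone, and the other classes hold few genes. The genes that were not lower, Acot1, Acaa1a, Cpt1a, Echdc1, Acsl6, Echdc2 and Acad12, were thus all among those of a mean signal under 9.

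**Figure D4:**
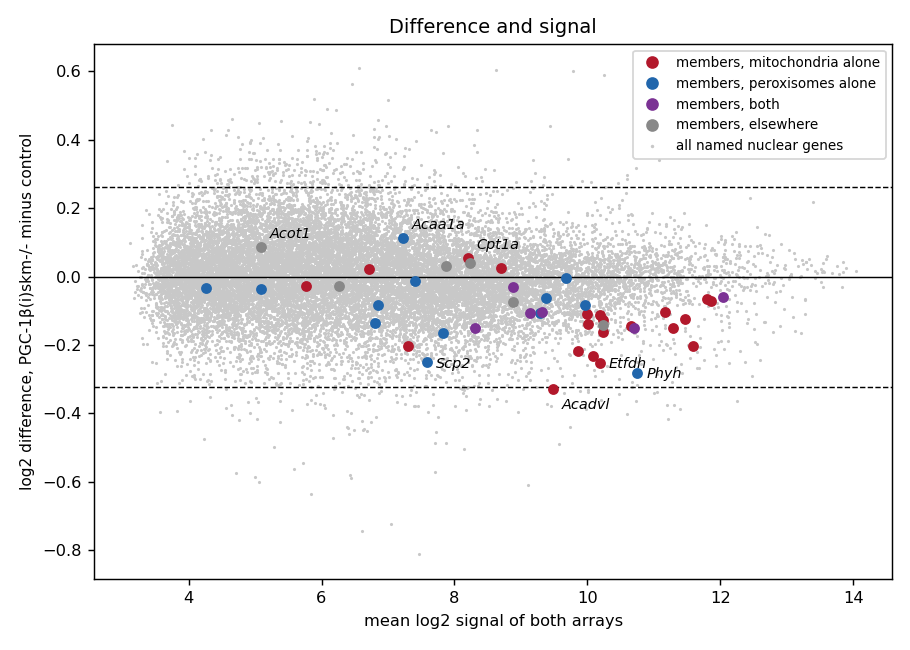
Log2 difference (vertical axis, PGC-1β(i)skm-/- minus control) against the mean log2 signal of both arrays (horizontal axis), with members coloured by location over all 19936 named nuclear genes in grey and dashed lines at ratios of 0.8 and 1.2. All 26 members to the right of a signal of 9 lie below 0.

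The members were spread over the lower part of the distribution of all genes. A total of 8 of 46 lay among the lowest 5% of genes, at a difference of -0.19 or less, and 0 of 46 lay among the highest 5%. Of the 11 members with a difference of 0.15 or more in size, all 11 were lower in PGC-1β(i)skm-/- muscle, 8 of them mitochondrial and 3 peroxisomal, and 8.34% of all genes had a difference of -0.15 or less.

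The citric acid cycle and the pyruvate dehydrogenase complex, which receive or supply acetyl-CoA beside β-oxidation, had larger differences. All 22 measured genes of 23 listed were below 0, against 50.2% of all genes, with a median of -0.25 and a range of -0.44 to -0.05. A ratio of 0.8 or less was found for 6 of them, against 0.652% of all genes. These 6 include Mdh1, the cytosolic malate dehydrogenase, at a ratio of 0.799, whereas the mitochondrial Mdh2 was at 0.913. Pdhb, a subunit of pyruvate dehydrogenase, had a signal of 9.52 in PGC-1β(i)skm-/- and 9.96 in control muscle, Sdhb of succinate dehydrogenase 11.00 in PGC-1β(i)skm-/- and 11.41 in control muscle, and Dlat, the transacetylase of the pyruvate dehydrogenase complex, 10.40 in PGC-1β(i)skm-/- and 10.80 in control muscle. The median of the mitochondrial members of fatty acid oxidation, -0.13, lay between this value and that of all genes.

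**Figure D5:**
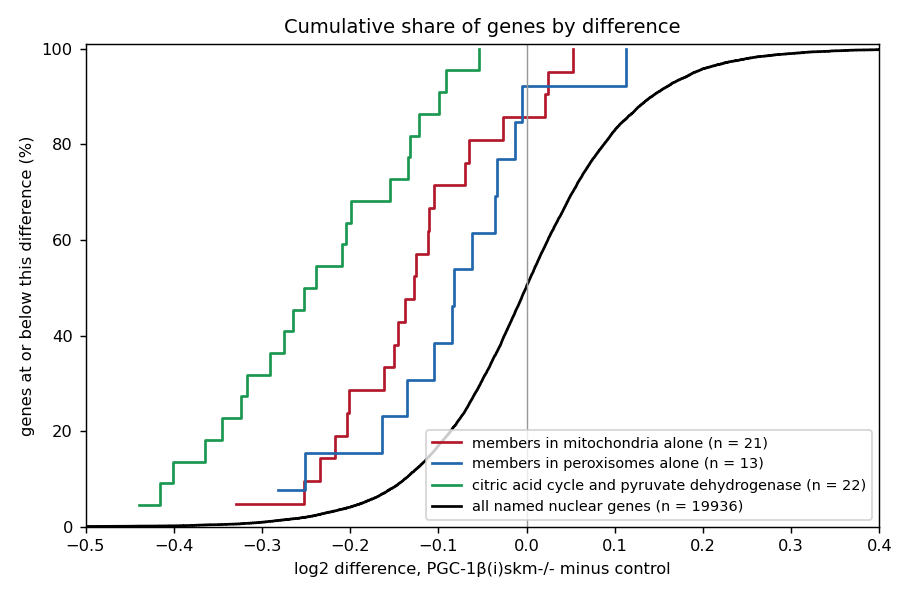
Share of genes (vertical axis, in percent) at or below each log2 difference (horizontal axis, PGC-1β(i)skm-/- minus control) for mitochondrial members, peroxisomal members, the citric acid cycle with pyruvate dehydrogenase, and all 19936 named nuclear genes. The curve of the citric acid cycle lies furthest left, with a median of -0.25, followed by mitochondrial members at -0.13 and peroxisomal members at -0.08.

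Genes around the pathway were read from further lists, beside which 50.2% of all genes were below 0 and 0.652% had a ratio of 0.8 or less. The other acyl-CoA dehydrogenases and related enzymes, most of which break down amino acids, were below 0 in 7 of 7, with a median of -0.09, led by Hibch, the hydroxyisobutyryl-CoA hydrolase of valine breakdown, at -0.32. Other thioesterases and CoA hydrolases were below 0 in 12 of 13, with a median of -0.14. Among them, Nudt7, a peroxisomal coenzyme A hydrolase, had a signal of 8.18 in PGC-1β(i)skm-/- and 8.55 in control muscle and was the only gene of that list with a ratio of 0.8 or less. Carnitine uptake and synthesis was below 0 in 3 of 5, with a median of -0.06. Aldh9a1, an enzyme of carnitine synthesis, was at -0.29 and Slc22a5, the carnitine transporter of the plasma membrane, at -0.20. Bbox1 of the same list was at 0.12, with a dim signal of 4.27 in PGC-1β(i)skm-/- and 4.15 in control muscle. Fatty acid uptake and binding was below 0 in 6 of 8, with a median of -0.05 and Slc27a1, a fatty acid transporter, lowest at -0.15.

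Other genes of the peroxisome were mostly below 0 as well, against 50.2% of all genes. Of 14 measured genes of peroxisome biogenesis, 12 were below 0, with a median of -0.03, and Pex11a, a peroxisome division protein, and Pex10, a ubiquitin ligase of the import machinery, were lowest at -0.26 and -0.24. Of 18 other genes of peroxisomal proteins, 15 were below 0, with a median of -0.08, and Pxmp2, a membrane channel, was lowest at -0.26. No gene of either list reached a ratio of 0.8 or less, which only 0.652% of all genes did.

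Regulators of the pathway had a median of -0.04, with 13 of 22 below 0, against 50.2% of all genes. Esrra, the estrogen-related receptor α, had a signal of 8.13 in PGC-1β(i)skm-/- and 8.28 in control muscle, and Ppara, the PPAR of fatty acid catabolism, 8.57 in PGC-1β(i)skm-/- and 8.68 in control muscle. Ppard had 9.10 in PGC-1β(i)skm-/- and 9.17 in control muscle, and Ppargc1a, encoding the related coactivator PGC-1α, 10.29 in PGC-1β(i)skm-/- and 10.18 in control muscle. After Ppargc1b, the largest differences in the list were those of Esrrb, at -0.22, and Prkag3, a muscle subunit of AMP-activated protein kinase, at 0.19. PPAR target genes outside the members were below 0 in 6 of 8, with a median of -0.03, the lowest being Plin5, a lipid droplet protein, at -0.19. Proteins of fast fibres were below 0 in 2 of 12, with a median of 0.01 and a highest value of 0.05. The lowest was Myh1 at -0.16, with a signal of 12.71 in PGC-1β(i)skm-/- and 12.87 in control muscle. Proteins of slow fibres were below 0 in 8 of 12, with a median of -0.0093 and a range of -0.06 to 0.11.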

How the data were processed

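RNA of 3 mice was pooled per genotype and hybridized to 1 array each. The deposited log2 signals come from the authors' RMA run in Expression Console, in which background correction is followed by quantile normalization, which would hide a change of all genes together, and by median polish. The build to which probes were assigned was not given in the sources used here.

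Of 35556 probe sets, 21789 carried 1 symbol in the platform's annotation, 1621 several and 12146 none. After 4 of the mitochondrial genome were set aside, 21694 of 21785 matched RefSeq (GRCm38.p6) by Entrez ID and 91 kept their symbol. The probe set of highest mean signal stood for its gene, with no filter on signal. Promoters of 300 bases were the first RefSeq entry per gene, and none was at hand for Abcd2, Acaa2, Acot13, Amacr, Cpt1b, Crat, Decr1 and Hsd17b4.

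Both signals are given for members with a difference of 0.15 or more in size and for the first 2 of each role. Of each of 16 further lists, up to 3 genes of largest difference are named, with Ppargc1b, Ppargc1a, Ppara, Ppard and Esrra added. The members and lists were chosen with earlier results of these data known. Other settings tried were averaging a gene's probe sets, adding those with several genes, leaving out dim genes (mean log2 signal under 6 or under 7), subtracting the median difference or a loess trend on signal (span 0.3), other thresholds, and other locations for members of both organelles. The calculation was tested on simulated data, with Python 3.11.15, pandas 2.3.3, numpy 2.4.6, statsmodels 0.14.6 and matplotlib 3.10.9.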

Additional observations from a re-analysis of the deposited data

How the results depend on the processing

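No paired analysis was possible because each genotype had 1 array. The median difference over the members stayed between -0.11 and -0.09 under all alternatives tried, that of mitochondrial members between -0.14 and -0.12, that of peroxisomal members between -0.08 and -0.07, and their difference between -0.06 and -0.04. The members below 0, which were 39 of 46, became 33 of 38 with genes under a mean signal of 7 left out. They became 41 of 48 with probe sets of several genes added. The number of members past a ratio of 0.8 or 1.2, which was 1, became 0 with the loess curve subtracted, since Acadvl was then at -0.31, 2 with a lower limit of 1/1.2, and 0 at 1.5-fold. The largest move of a single member was 0.02, with the loess curve subtracted. Without replicate arrays, differences of this size between pools of mice cannot be set against the spread between mice, and dim genes are limited further by their signal over background.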
